A study of Drosophila melanogaster with 25 samples.

Results

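The UDP-glycosyltransferase (Ugt) genes of Drosophila melanogaster were followed across 6 genotypes of larval wing disc. Members were all genes whose FlyBase symbol begins with Ugt and a digit, after the gene identifiers of the deposited tables had been matched to symbols. This rule found 35 of 13955 genes, in 13 numbered families, with 11 members on chromosome arm 2L, 5 on 2R, 2 on 3L and 17 on 3R. Within them, 10 genes whose older symbols begin with Ugt86D lie within 51.31 kb of 3R, with 3 other protein-coding genes among them, and are treated as a cluster, and the remaining 25 are scattered over the 4 arms.

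The libraries come from intact wing discs of wandering larvae, 50 discs to a sample, all raised at the same temperature on yeast-enriched wheat flour food. RpS3+puc larvae (3 libraries) carried esg-Gal4, UAS-GFP over UAS-Puc, together with FRT82, RpS3[Plac92] and ubi-GFP over a wild type chromosome. In these larvae puckered (puc), the phosphatase that inhibits JNK signalling, is driven where esg-Gal4 is active. Discs of mahj (2 libraries) were homozygous for mahj on FRT42D chromosomes and carried hs-FLP and stauGFP. RpS3* discs (2 libraries) were heterozygous for a second RpS3 mutation, FRT82B, RpS3*/+. RpS3 discs (2 libraries) were FRT82B, RpS3[Plac92], ubi-GFP/+. RpS15 discs (2 libraries) were heterozygous for FRT42D, M(2)53[1], a Minute allele of RpS15. WT discs (8 libraries) were yw in 6 libraries and FRT82, ubi-GFP in the other 2, namely WT5 and WT6. The study asked what sets prospective loser cells of cell competition apart. Its RpS3, RpS3* and mahj genotypes are of that kind, and RpS15, a ribosomal protein mutation without the loser property, served beside them.

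UDP-glycosyltransferases sit in the membrane of the endoplasmic reticulum and move a sugar from a UDP-sugar, in insects mostly glucose, onto small lipophilic molecules. The sugar makes these molecules more water soluble, so that they can be stored or exported, and the enzymes are counted among the conjugation steps of detoxification, after oxidation by cytochromes P450 and beside glutathione transfer. Insects also use them on hormones, odorants and pigments. The family is known above all from fat body, gut, Malpighian tubules and antennae.

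The libraries had implied depths of 12122876 to 16970385 reads, and values were in FPKM, which divides the reads of a gene by its length and by the size of the library, so that levels of different genes can be compared. The mutated and expressed genes were checked first. RpS3 was at 1264 to 1366 FPKM in RpS3+puc, 1262 to 1296 in RpS3*, 1314 to 1344 in RpS3 and 1630 to 1648 in RpS15 discs, against 2057 to 3023 in WT, so that it was below every WT library in RpS15 discs too. RpS15 was at 1008 to 1055 FPKM in RpS15 discs, against 2611 to 4102 in WT, and mahj at 17.2 in both mahj libraries, against 23.4 to 29.1 in WT. The mahj transcript was still present in mahj discs. puc was at 159.9 to 224.5 FPKM in RpS3+puc discs, against 13.0 to 15.0 in RpS3 discs. The 8 wing disc markers that could be matched (nub, vg, Dll, en, hth, tsh, zfh2 and rn) each reached 1 FPKM in every group. Their sum was 354.7 to 448.7 FPKM in RpS3+puc discs, below every WT library, and 660.3 and 699.4 in RpS15 discs, above every WT library, against 465.99 to 595.1 in WT. RpS3 discs had 456.7 and 480.8, the first just below the WT range, and mahj and RpS3* discs lay within it. Larval muscle markers were below WT in the same genotypes, with 23.4 to 38.1 FPKM in RpS3+puc and 28.5 and 38.7 in RpS15 discs, against 40.1 to 69.4 in WT. The part of these differences in the values that follow was not tested. Fat body markers summed to 4.85 to 1446 FPKM per library and gut markers to 0 to 154.3 FPKM. One mahj library was the highest for fat body, and WT5 the highest for gut.

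Most of the family was at or near 0 in wing discs. Of the 35 members, 6 averaged at least 3 FPKM in WT, namely Ugt316A1 (47.0 ± 4.0, SD, n = 8), Ugt86Da (30.1 ± 2.5), Ugt36D1 (23.7 ± 3.2), Ugt86Di (18.7 ± 8.6), Ugt317A1 (12.1 ± 1.9) and Ugt36A1 (4.63 ± 0.72). Ugt50B3 followed with 1.41 ± 0.52 and Ugt86Df with 0.98 ± 0.27 FPKM. At the other end, 24 members did not reach 1 FPKM in any of the 19 libraries, 21 of them stayed below 0.5 FPKM throughout, and 22 members were at 0 in at least 1 library, although none was at 0 in all. One read of the Ugt86Dc gene, for example, corresponds to 0.037 to 0.052 FPKM, so that levels under 0.1 FPKM rest on a few reads and carry no comparison between genotypes.

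**Figure D1:**
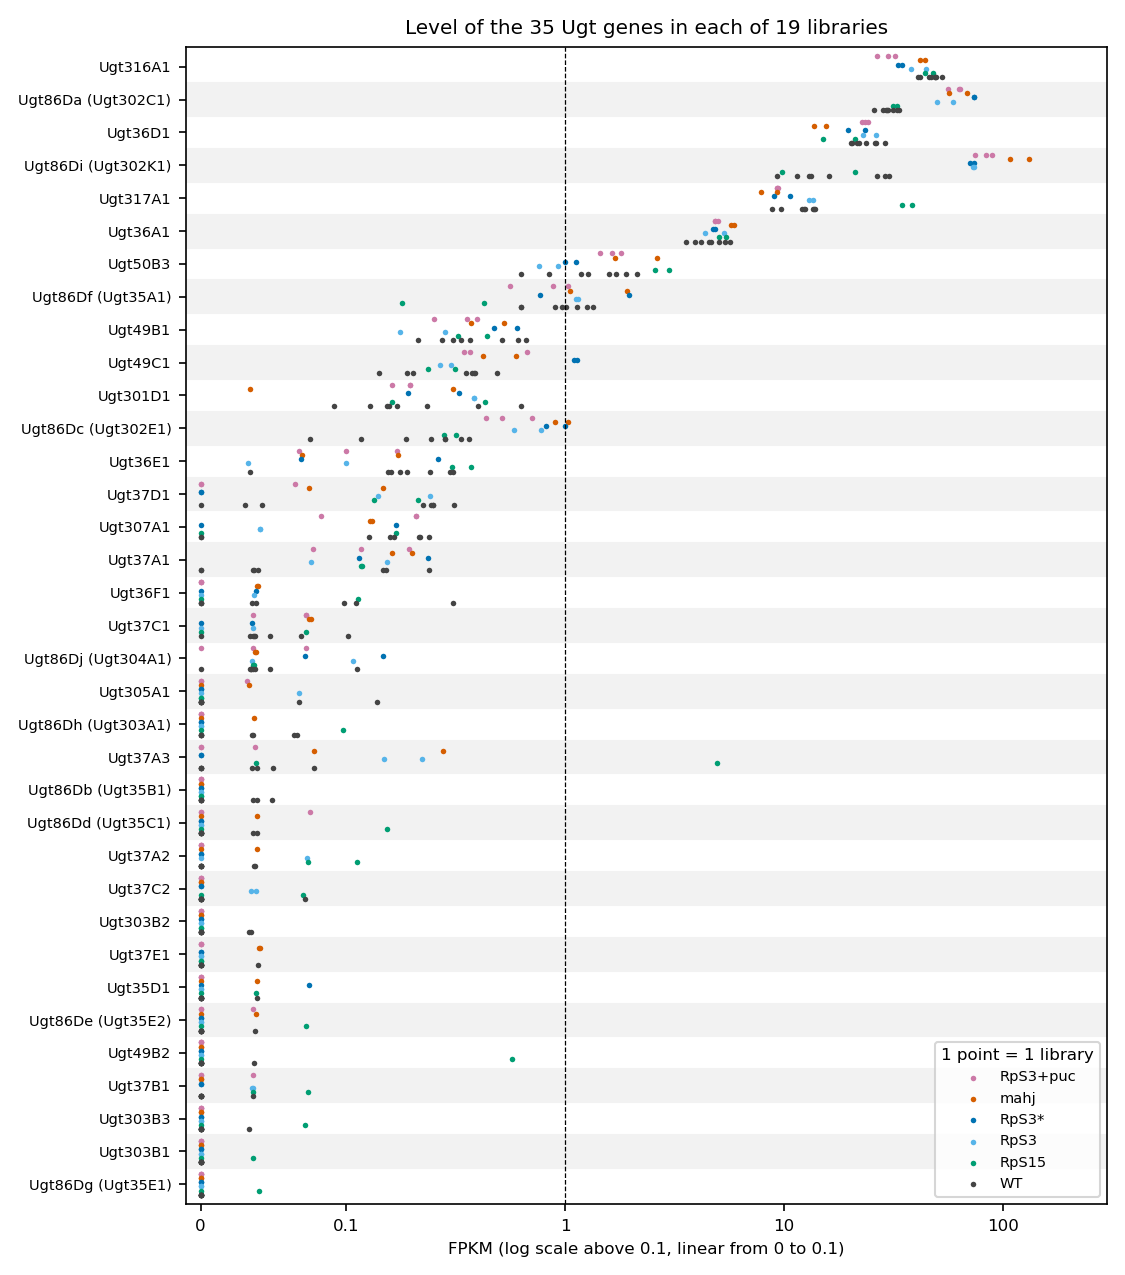
FPKM of each of the 35 Ugt genes (rows, ordered by WT mean) in each of 19 libraries (points, coloured by genotype). The axis is logarithmic above 0.1 FPKM and linear below it, and the dashed line marks 1 FPKM. Only 6 genes average at least 3 FPKM in WT, and the single green point at 4.95 FPKM in the row of Ugt37A3 is 1 RpS15 library.

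The order of the expressed members by group mean was not the same in all genotypes. In WT and RpS15 discs Ugt316A1 was the most abundant member, whereas Ugt86Di was the most abundant in RpS3+puc, mahj and RpS3 discs. In RpS3* discs Ugt86Da and Ugt86Di averaged 74.1 ± 0.3 and 72.4 ± 1.8 FPKM (SD, n = 2), and Ugt316A1 came after them with 34.0 ± 0.9. In WT, the neighbours Ugt36D1 and Ugt86Di overlapped in that order, since Ugt86Di alone ranged from 9.31 to 30.3 FPKM, a range that also reached Ugt86Da above and Ugt317A1 below it. Ugt36A1 (Dorothy, known from the larval blood system) lay between 3.59 and 5.92 FPKM in all 19 libraries and was called in no comparison. Summed over the family, expression was 199.1 to 225.9 FPKM in RpS3+puc, 244.4 and 278.1 in mahj, 221.9 and 223.2 in RpS3*, 215.5 and 218.2 in RpS3 and 149.8 and 174.4 in RpS15 discs, against 131.2 to 150.4 in WT.

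The Ugt86D cluster covers 51.31 kb of 3R (11126597 to 11177910 in the BDGP6.54 annotation, which is not the build of the deposited values). In order along the chromosome it holds Ugt86Dd (current symbol Ugt35C1), Ugt86Di (Ugt302K1), Ugt86Dc (Ugt302E1), Ugt86Da (Ugt302C1), Ugt86Dg (Ugt35E1), Ugt86De (Ugt35E2), Ugt86Db (Ugt35B1), Ugt86Df (Ugt35A1), Ugt86Dj (Ugt304A1) and Ugt86Dh (Ugt303A1). Ugt86Di, Ugt86Dc and Ugt86Da are the only members of the Ugt302 family, and families are numbered by similarity of protein sequence. They stand next to each other with gaps of 776 and 584 bp. Ugt86Dd is known for its part in nicotine resistance of larvae. Ugt86Db is known as an antennal gene, and individual functions of the other cluster members are not described here.

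Only 2 of the 10 cluster genes were expressed at 3 FPKM or more in WT, Ugt86Di and Ugt86Da, and both belong to the Ugt302 family. Ugt86Df lay near 1 FPKM, Ugt86Dc between 0.07 and 1.03 FPKM, and the other 6 genes below 0.5 FPKM in all libraries. In reads, Ugt86Dd had 0 to 4 per library, Ugt86De 0 to 2, Ugt86Db and Ugt86Dg 0 or 1 and Ugt86Dj 0 to 4. Of the 3 other protein-coding genes inside the cluster, CheA86a was at 0 in all groups and mAcon2 and CG4757 averaged below 0.1 FPKM in every group.

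**Figure D2:**
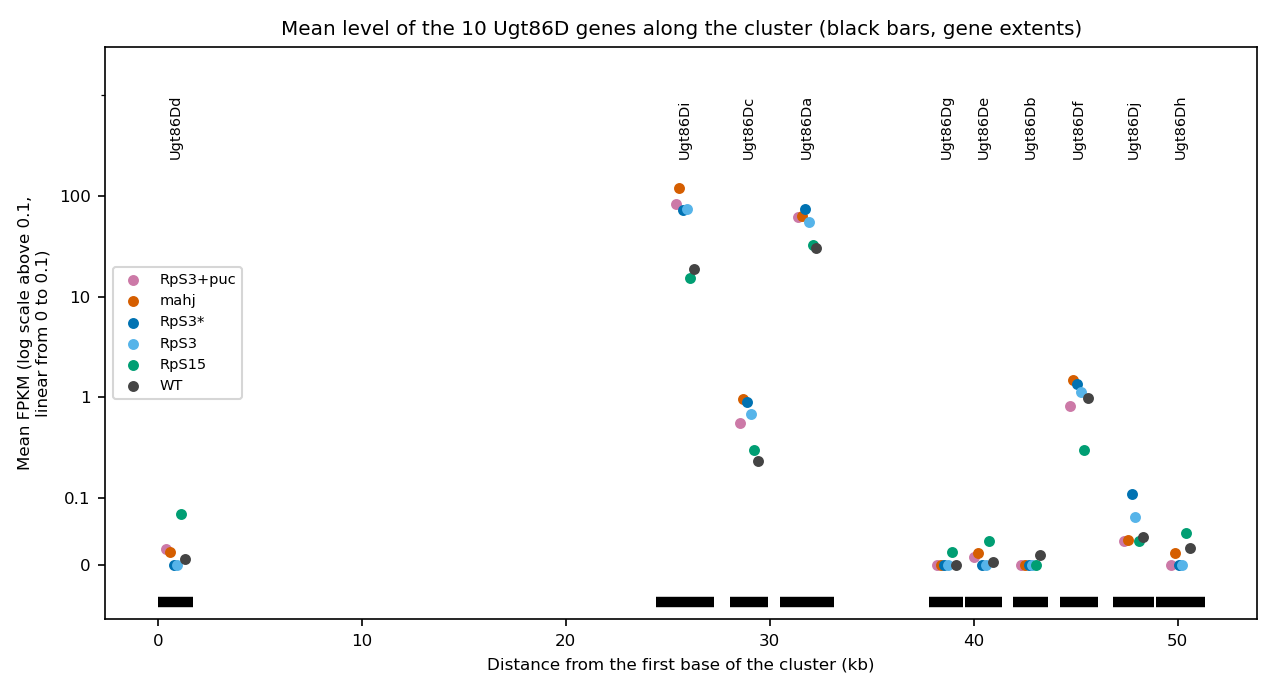
Mean FPKM of the 10 Ugt86D genes (points, coloured by genotype and slightly offset within a gene) against distance along the cluster in kb, with black bars for the extents of the genes. Ugt86Di, Ugt86Dc and Ugt86Da have RpS3+puc, mahj, RpS3* and RpS3 means above the RpS15 and WT means, and the flanking genes other than Ugt86Df sit near 0.

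Ugt86Di was the member with the widest span between genotypes. It had 74.7, 84.2 and 89.9 FPKM in RpS3+puc, 131.3 and 107.8 in mahj, 71.1 and 73.6 in RpS3* and 73.4 and 74.0 in RpS3 discs. RpS15 discs had 9.80 and 21.1 FPKM and WT discs 9.31 to 30.3, with a median of 14.7. All 9 libraries of the first 4 genotypes were thus above every RpS15 and WT library, while both RpS15 libraries lay within the WT range. The ratio of group means to WT was 4.45 for RpS3+puc, 6.41 for mahj, 3.88 for RpS3*, 3.95 for RpS3 and 0.83 for RpS15 discs. RpS3 lies on the same arm as the cluster, 12204963 bp from Ugt86Di. In RpS3+puc, RpS3* and RpS3 discs the RpS3 mutation and other variants of its FRT82 or FRT82B chromosome cannot be told apart. The FRT42D chromosomes of mahj and RpS15 discs are those of another pair.

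WT libraries differed among themselves in Ugt86Di by 3.25 times between the lowest and the highest, more than in Ugt86Da (1.31 times) or Ugt316A1 (1.29 times). WT5 and WT6, of the FRT82 ubi-GFP stock, had 30.3 and 29.1 FPKM, and the yw library WT4 had 26.7, against 9.31 to 16.1 in the other 5 yw libraries. FRT82 ubi-GFP WT discs exceeded yw WT discs by 1.02 ± 0.30 on the log2 scale (SE), with an unadjusted p of 0.0085 and an adjusted p of 0.33 in limma. Every mutant library other than those of RpS15 stood more than 2 times above these highest WT libraries. Among WT, the fat body marker sum was highest in WT6 (318.3 FPKM) and lowest in WT5 (34.9 FPKM), which had the high gut sum. In RpS3+puc discs, with Ugt86Di at 74.7 FPKM or more, the fat body sum was 4.85 to 8.98 FPKM and the gut sum at most 0.57 FPKM. The first mahj library, with the highest fat body sum of all (1446 FPKM), also had the highest Ugt86Di level, 131.3 FPKM. The part of fat body or gut tissue in the Ugt86Di values was not tested.

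Ugt86Da changed less than Ugt86Di and spread less in WT, though not in RpS3 discs. It had 56.1, 64.0 and 63.1 FPKM in RpS3+puc, 68.8 and 56.8 in mahj, 73.9 and 74.3 in RpS3* and 59.1 and 50.2 in RpS3 discs. In RpS15 discs it had 31.5 and 33.0 FPKM, and in WT 25.7 to 33.6 with a median of 29.9. As for Ugt86Di, no library of the first 4 genotypes overlapped with WT, and RpS15 libraries lay inside the WT range. The ratios of means to WT were 2.03 for RpS3+puc, 2.09 for mahj, 2.46 for RpS3*, 1.81 for RpS3 and 1.07 for RpS15.

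Ugt86Dc was too low to enter the fits, but its reads were higher in the same 4 genotypes, though ranked otherwise among them. It had 13, 11 and 18 reads in RpS3+puc, 25 and 22 in mahj, 21 and 25 in RpS3*, 15 and 20 in RpS3 and 8 and 7 in RpS15 discs, against 2 to 9 in WT. In FPKM these are 0.43 to 1.03 in the first 4 genotypes, 0.28 and 0.32 in RpS15 and 0.07 to 0.36 in WT. When no filter on low values was applied, the log2 difference to WT was 0.33 in RpS3+puc (adjusted p = 0.014 in limma), 0.67 in mahj (0.0020), 0.63 in RpS3* (0.0038), 0.44 in RpS3 (0.032) and 0.08 in RpS15 (0.68). These values understate the ratio, since 1 FPKM is added before the logarithm. Ugt86Dc was not the only low member called in these unfiltered fits. Ugt37A3 was called higher in RpS3 discs by 0.21 (adjusted p = 0.0076 in limma), on 4 and 6 reads. In mahj discs Ugt37A3 was higher by 0.19 (0.042), on 7 and 2 reads, and it was not called in RpS3* or RpS3+puc discs. The share of all genes called without the filter is not given here.

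The 2 expressed Ugt302 genes did not change in a fixed proportion. Ugt86Di was 1.31 to 1.42 times as abundant as Ugt86Da in RpS3+puc, 1.90 and 1.91 times in mahj, 0.96 and 0.99 times in RpS3* and 1.24 and 1.48 times in RpS3 discs, against 0.31 and 0.64 times in RpS15 and 0.36 to 1.04 times in WT. The 3 Ugt302 genes together made up 66.0% to 68.0% of the summed Ugt expression in RpS3+puc, 67.7% and 72.3% in mahj, 65.7% and 66.7% in RpS3*, 57.3% and 61.8% in RpS3 and 27.8% and 31.2% in RpS15 discs, against 26.8% to 41.1% in WT. Without them the family sum was 67.8 to 74.1 FPKM in RpS3+puc, 77.0 and 78.9 in mahj, 74.3 and 76.2 in RpS3*, 82.3 and 93.3 in RpS3 and 108.2 and 120.0 in RpS15 discs, against 85.0 to 97.9 in WT. The higher family sums of RpS3+puc, mahj, RpS3* and RpS3 discs thus lay in the Ugt302 genes. The sum of the other members was lower than in any WT library in RpS3+puc, mahj and RpS3* discs. It consists mostly of Ugt316A1, Ugt36D1, Ugt317A1 and Ugt36A1, which did not fall together. Ugt36D1 averaged 14.7 FPKM in mahj and 23.5 in RpS3+puc discs, against 23.7 in WT. Ugt36A1 averaged 5.81 FPKM in mahj discs, against 4.63 in WT.

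Ugt86Df, the fourth cluster gene with measurable expression, was distributed differently. It had 1.03, 0.88 and 0.56 FPKM in RpS3+puc, 1.92 and 1.06 in mahj, 0.77 and 1.97 in RpS3*, 1.12 and 1.14 in RpS3 and 0.42 and 0.18 in RpS15 discs, against 0.63 to 1.35 in WT. In reads the RpS15 values are 12 and 5, against 18 to 40 in WT. Both RpS15 libraries were below all other libraries, and the other genotypes overlapped with WT.

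**Figure D3:**
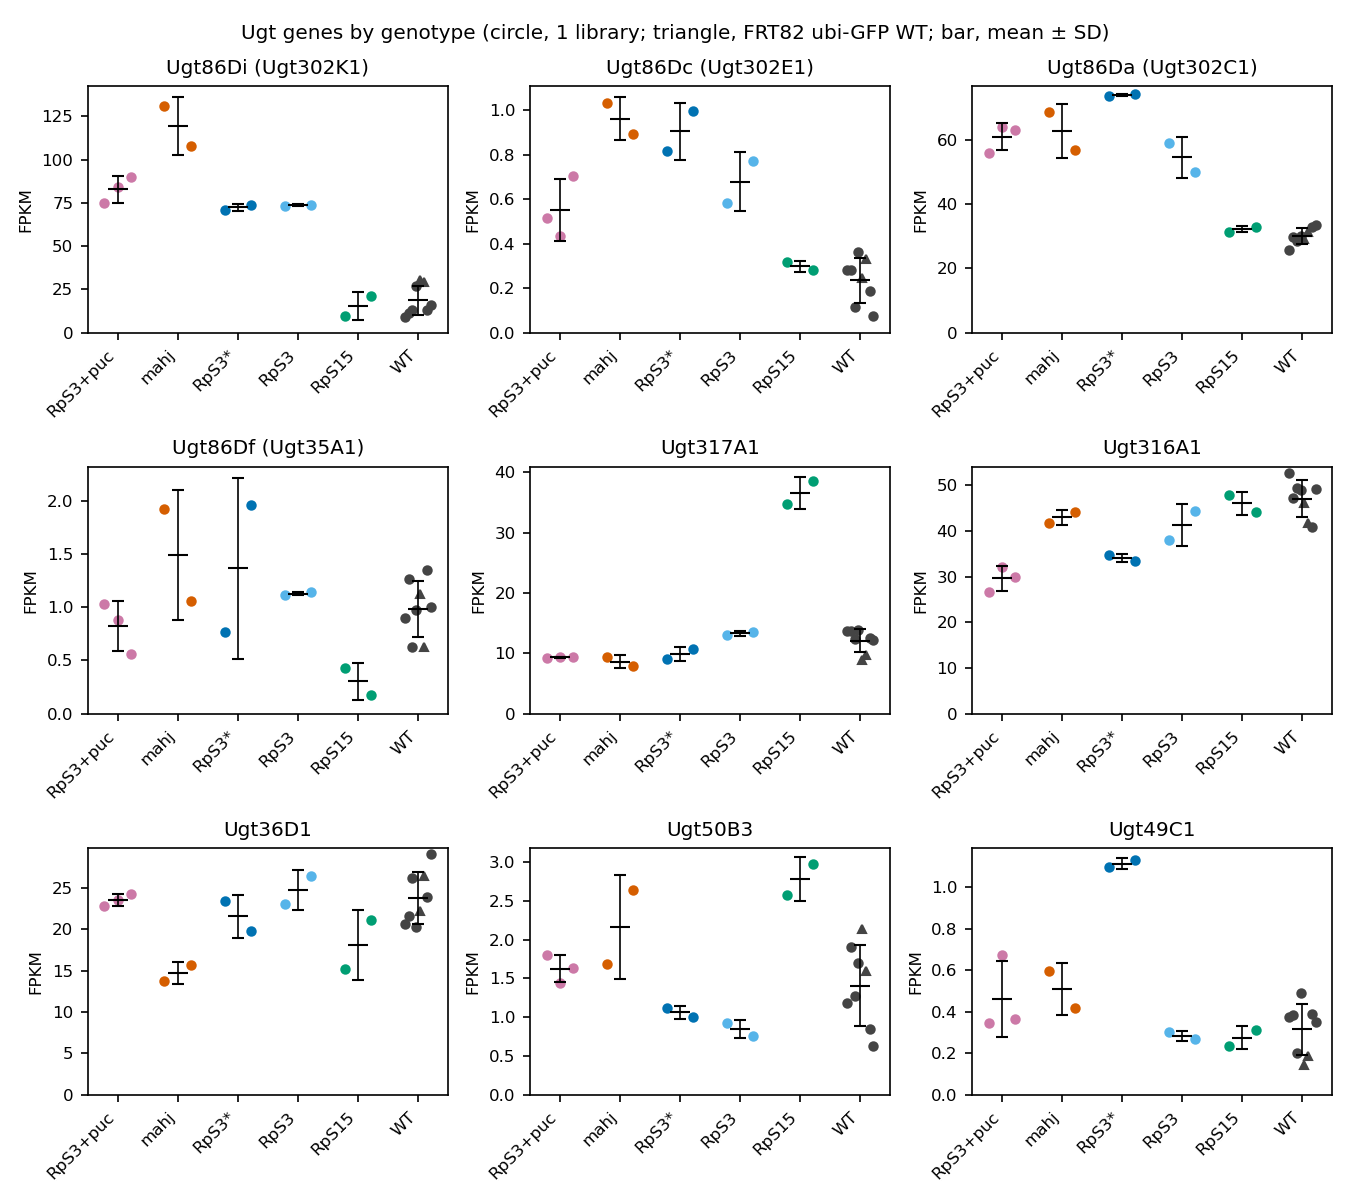
FPKM of 9 Ugt genes in each library (circles, with triangles for the FRT82 ubi-GFP WT libraries) by genotype, with the mean and SD of each group; every axis starts at 0. The Ugt86Di and Ugt86Da panels separate RpS3+puc, mahj, RpS3* and RpS3 from RpS15 and WT, the Ugt317A1 panel separates RpS15 from all other groups, and Ugt49C1 is above 1 FPKM only in RpS3* discs.

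Differences were tested with limma on log2(FPKM + 1) over all genes that reached 1 FPKM in at least 2 of the libraries in the fit, and called at an adjusted p under 0.1. Log2 fold changes are on that scale, and are given with their SE. Only 8 or 9 members passed this filter in a comparison, 9 in all, so that counts below are of the members tested and not of the family. Where a gene passed the filter only through the libraries of the group in which it was higher, a difference was built into its selection. Such genes are left out of the counts below, and their values are given without a test. The shares over all genes set beside these counts still include every gene tested, so that counts and shares rest on unlike selections. Since the samples are described as separate pools of discs without naming separate crosses, p-values measure the spread between these samples.

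The comparison of RpS3 with WT discs asks which genes change in prospective losers. Of 7 members, 2 rose in RpS3 discs and none fell, in a comparison in which 14.4% of all genes tested were called higher and 4.17% lower. They were Ugt86Da, higher by 0.84 ± 0.10 (adjusted p = 0.00026), and Ugt86Di, higher by 2.05 ± 0.43 (0.017). With 1 RpS3 library left out, the adjusted p of Ugt86Di was 0.16 or 0.22 at nearly the same fold change, and only Ugt86Da was called. Against the FRT82 ubi-GFP WT libraries alone, which had the highest Ugt86Di levels of WT, the log2 difference of Ugt86Di was 1.28 (adjusted p = 0.00095).

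In RpS3* discs 2 of 8 members rose and 1 fell, where 16.5% of all genes were called higher and 6.33% lower. Ugt86Da rose by 1.28 ± 0.10 (adjusted p = 1.9e-06) and Ugt86Di by 2.02 ± 0.42 (0.013). Ugt49C1 was at 1.10 and 1.13 FPKM in RpS3* discs, against 0.14 to 0.49 in WT, and passed the filter only through RpS3*. Ugt316A1 had 34.7 and 33.4 FPKM in RpS3* discs, against 40.9 to 52.7 in WT, a log2 difference of -0.45 ± 0.10 (adjusted p = 0.010). With 1 RpS3* library left out, the adjusted p of Ugt86Di was 0.11 or 0.17, and that of Ugt316A1 reached 0.18. Against FRT82 ubi-GFP WT alone, Ugt86Di was higher by 1.26 (adjusted p = 0.00055).

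The comparison of mahj with WT covers a loser genotype in which no ribosomal protein gene is mutated. Here 2 of 8 members rose and 2 fell, against 9.33% of all genes called higher and 6.7% lower. Ugt86Da rose by 1.03 ± 0.10 (adjusted p = 3.3e-05) and Ugt86Di by 2.73 ± 0.43 (0.0023). The mahj library with fat body markers at 1446 FPKM had the higher Ugt86Di level, 131.3 FPKM, and the other, at 61.4 FPKM of these markers, had 107.8 FPKM and gave a log2 fold change of 2.59 alone (adjusted p = 0.075). Ugt36D1 had 13.8 and 15.7 FPKM in mahj discs, against 20.2 to 29.0 in WT, and fell by 0.65 (SE 0.13, adjusted p = 0.0054). It was not called without the first mahj library (adjusted p = 0.17). Ugt317A1 had 9.34 and 7.86 FPKM in mahj discs, against 8.85 to 13.9 in WT, a difference of -0.44 ± 0.15 at an adjusted p of 0.091. That call was lost against the FRT82 ubi-GFP WT libraries alone, with -0.10 and an adjusted p of 0.73, and against them Ugt86Di was higher by 1.97 (0.00080).

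RpS15 discs carry a ribosomal protein mutation that does not make losers, and the Ugt302 genes were not called in them. Ugt86Di differed from WT by -0.23 (95% interval -1.28 to 0.83, adjusted p = 0.77) and Ugt86Da by 0.10 (-0.11 to 0.31, adjusted p = 0.50). The interval of Ugt86Di is wide and reaches a 1.78-fold increase, whereas that of Ugt86Da ends at 1.24-fold. Of 7 members, 2 others rose and none fell, where 12.1% of all genes were called higher and 8.99% lower. Ugt317A1 had 34.7 and 38.5 FPKM in RpS15 discs, against 8.85 to 13.9 in WT, and rose by 1.53 ± 0.15 (adjusted p = 5.8e-05). No library of another genotype exceeded 13.9 FPKM in this gene. Ugt50B3 had 2.58 and 2.98 FPKM in RpS15 discs, against 0.63 to 2.14 in WT (0.68 ± 0.23, adjusted p = 0.069), and against FRT82 ubi-GFP WT alone it was not called (0.40, adjusted p = 0.21). Ugt86Df, at 0.42 and 0.18 FPKM in RpS15 discs as given above, passed the filter only through WT. With 1 RpS15 library left out, Ugt317A1 alone was called.

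Ugt317A1 (older symbol Ugt58Fa) lies on 2R at 22641786 to 22643917 in BDGP6.54, on the chromosome that carries M(2)53[1] and FRT42D in RpS15 discs. Discs of mahj also carry FRT42D on this chromosome, with mahj 1010364 bp from Ugt317A1, and had 9.34 and 7.86 FPKM of Ugt317A1. Of the 3 protein-coding neighbours on either side of Ugt317A1, none was called higher in RpS15 discs. RpS24, the neighbour to the left, was lower by 0.44 (adjusted p = 0.044), and bonsai, CG3732, CG2852, CG30195 and CG34446 had values of -0.67 to 0.13 without a call. On 3R, the genes to the right of the cluster behaved in different ways. CG18577, the nearest, had log2 differences to WT of -0.62 in mahj, -0.68 in RpS3* and -0.60 in RpS15 discs (adjusted p = 0.067, 0.042 and 0.085), and cu, next to it, one of -0.39 in RpS3* discs (0.054). SdhC, the third, a subunit of succinate dehydrogenase, was higher in RpS3+puc, RpS3* and RpS3 discs by 1.14, 0.61 and 0.54 (0.00015, 0.051 and 0.086), but not called in mahj discs, with -0.14 (0.72). The 3 genes to the left, side-VI, CG43449 and SdhCL, averaged below 0.1 FPKM in WT.

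The expressed Ugt302 genes were also high in RpS3+puc discs. Against WT, where 37.4% of all genes tested were called higher and 24.9% lower, 2 of 7 members rose and 2 fell. Ugt86Da rose by 1.00 ± 0.08 (adjusted p = 1.6e-06) and Ugt86Di by 2.21 ± 0.35 (0.00065). Ugt316A1 had 26.6, 32.1 and 30.0 FPKM in RpS3+puc discs, against 40.9 to 52.7 in WT, and fell by 0.65 (SE 0.09, adjusted p = 0.00012). Ugt317A1 was at 9.27 to 9.36 FPKM in the 3 RpS3+puc libraries and was lower than WT by 0.33 (SE 0.12, adjusted p = 0.034). Against the FRT82 ubi-GFP WT libraries, which had 8.85 and 9.67 FPKM, the difference was 0.0082 (adjusted p = 0.96), and that of Ugt86Di was 1.45 (1.5e-05).

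Set against RpS3 discs, RpS3+puc discs show what changes with puc expression in the same mutant. Here 21.5% of all genes were called higher and 25.1% lower, and of 6 members none rose and 2 fell. Ugt86Di differed by 0.16 (95% interval -0.03 to 0.36, adjusted p = 0.17) and Ugt86Da by 0.16 (-0.05 to 0.37, adjusted p = 0.21). When the first RpS3+puc library was left out, Ugt86Di and Ugt86Da were called higher by 0.24 and 0.22 (adjusted p = 0.016 and 0.060). Ugt316A1 fell to 29.6 ± 2.8 FPKM in RpS3+puc discs, against 41.2 ± 4.6 in RpS3 discs, a log2 difference of -0.46 ± 0.10 (adjusted p = 0.010). Ugt317A1 fell to 9.31 ± 0.04 FPKM in RpS3+puc discs, against 13.3 ± 0.4 in RpS3 discs, a log2 difference of -0.47 ± 0.09 (0.0058). Ugt50B3 had 1.80, 1.44 and 1.64 FPKM in RpS3+puc discs, against 0.92 and 0.76 in RpS3 discs, and passed the filter only through RpS3+puc. With single libraries left out, the log2 difference was -0.50 to -0.44 for Ugt317A1 and -0.58 to -0.35 for Ugt316A1. Ugt316A1 was not called without the second RpS3 library. Without the first RpS3+puc library 5 members were called. That number includes Ugt50B3, whose difference was built into its selection, and is not comparable with the 2 of 6 above. UAS-GFP and esg-Gal4 were present in RpS3+puc discs only, so that their effects and those of puc cannot be told apart.

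**Figure D4:**
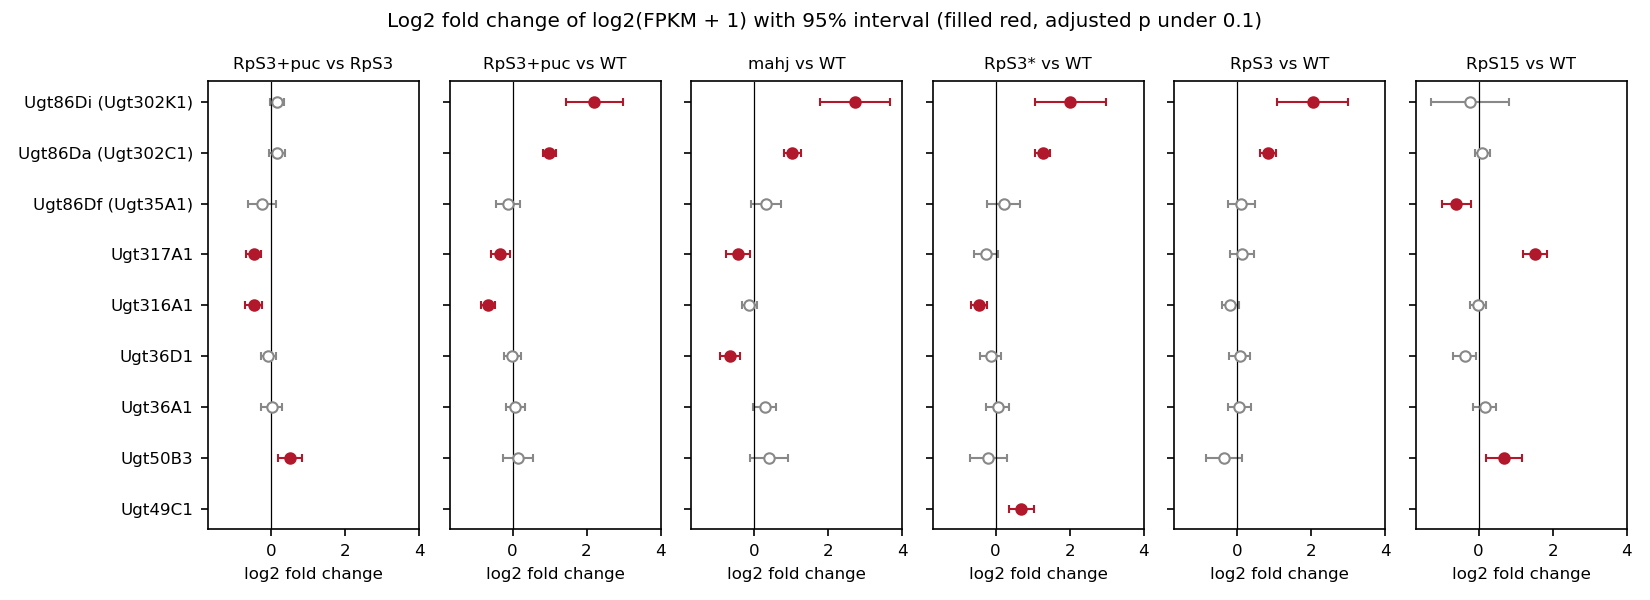
Log2 fold changes (x axis, difference of log2(FPKM + 1)) of the Ugt genes tested in 6 comparisons, with 95% intervals; filled red points have an adjusted p under 0.1, and include Ugt49C1 (RpS3*), Ugt86Df (RpS15) and Ugt50B3 (RpS3+puc against RpS3), which passed the filter only through 1 group. Ugt86Di and Ugt86Da are to the right of 0 in the RpS3+puc, mahj, RpS3* and RpS3 comparisons with WT, and in the comparison of RpS15 with WT the largest shift is that of Ugt317A1 (1.53).

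Direct contrasts between mutants were tested in a fit of all 19 libraries, with 9 members tested. Ugt49C1 passed the filter of that fit only through RpS3* and is left out where RpS3* discs are compared. RpS3* and RpS15 discs, both heterozygous for a ribosomal protein mutation, differed in 6 of 8 members, where 50.8% of all genes were called. Ugt86Di was higher in RpS3* discs by 2.25 ± 0.48 (adjusted p = 0.0032), Ugt86Da by 1.18 ± 0.12 (1.3e-06) and Ugt86Df by 0.82 ± 0.24 (0.014). Ugt317A1 was lower in RpS3* discs, with -1.79 ± 0.17 (4.0e-07), as were Ugt50B3 with -0.87 ± 0.25 (0.012) and Ugt316A1 with -0.42 ± 0.12 (0.0098). Ugt86Df lost its call without the second RpS3* or the second RpS15 library (adjusted p = 0.23 and 0.10).

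Discs of mahj and RpS15 differed in 4 of 9 members, where 28.6% of all genes were called. Ugt86Di was higher in mahj discs by 2.96 ± 0.48 (adjusted p = 0.00067), Ugt86Da by 0.93 ± 0.12 (2.6e-05) and Ugt86Df by 0.92 ± 0.24 (0.013), and Ugt317A1 was lower, with -1.97 ± 0.17 (1.3e-07). Here Ugt86Df lost its call without the first mahj or the second RpS15 library (adjusted p = 0.19 and 0.11). Discs of mahj and RpS3* differed in 2 of 8 members, where 22.7% of all genes were called, and no Ugt302 gene was among them. Ugt36D1 was lower in mahj discs with -0.52 ± 0.16 (adjusted p = 0.043), and Ugt316A1 was higher with 0.33 ± 0.12 (0.072). With either mahj library or either RpS3* library left out, Ugt316A1 was not called, and Ugt36D1 was called without the second mahj or the second RpS3* library only. For Ugt86Di the difference was 0.71, with an interval of -0.33 to 1.75 (adjusted p = 0.34).

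In RpS3* against RpS3 discs none of 8 members was called by limma, where 0.821% of all genes were. Ugt49C1 was at 1.10 and 1.13 FPKM in RpS3* discs, against 0.30 and 0.27 in RpS3 discs. Ugt86Da was higher in RpS3* discs by 0.44 ± 0.12 without a call (adjusted p = 0.15), and with an adjusted p of 0.034 when the fit held those 4 libraries only. Ugt86Di differed by -0.03, with an interval of -1.06 to 1.01.

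WT libraries of the 2 stocks differed in 1 member. Between FRT82 ubi-GFP WT and yw WT discs 0.815% of all genes tested were called, and among 7 members Ugt317A1 was lower in the FRT82 ubi-GFP libraries, with 8.85 and 9.67 FPKM, against 12.1 to 13.9 in yw (-0.45 ± 0.09, adjusted p = 0.082), a call that was lost with median-of-ratios scaling (adjusted p = 0.10). The stock and any shared preparation of these libraries cannot be told apart. RpS3 discs, which also carry ubi-GFP on an FRT82B chromosome, had 13.0 and 13.6 FPKM, within the yw range. RpS3+puc discs, with ubi-GFP on an FRT82 chromosome, had 9.27 to 9.36 FPKM, below the yw range. Also below it were RpS3* discs, with an FRT82B chromosome, at 9.04 and 10.7 FPKM. The part of these chromosomes in Ugt317A1 levels was not tested.

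A pair of members stood out in a single library. Ugt37A3 had 129 reads and 4.95 FPKM in the second RpS15 library, against 0 to 7 reads and at most 0.28 FPKM in the other 18. Ugt49B2 had 15 reads and 0.57 FPKM in that library, against 0 or 1 read elsewhere. In the same library 9 genes stood at 0.5 FPKM or more while remaining at 0.1 or less in all others, and the other libraries had 0 to 5 such genes. The fat body marker sum was 640.5 FPKM in this RpS15 library and 108.6 in the other, and its part in these values was not tested. Counts of near-identical family members can be split between copies by the counting, which is not described in the sources used here.

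Other genes of the same chemistry were followed in lists. Their counts stand beside the shares of all genes called in the same comparisons, as given above. Of 8 of 10 list genes for enzymes that supply UDP-sugars, none was called in RpS3 and mahj discs against WT, and 1 fell in RpS3* discs (Pgm1, phosphoglucose mutase, -0.32 ± 0.11, adjusted p = 0.062) and 1 in RpS3+puc discs (Hex-A, a hexokinase, -0.36 ± 0.10, 0.0086). In RpS15 discs 1 of 8 rose (12.1% of all genes), namely sgl, which oxidises UDP-glucose to UDP-glucuronate, with 42.5 ± 2.9 FPKM against 31.9 ± 2.9 in WT (adjusted p = 0.025). Hex-C, another hexokinase, was at 1.38 ± 0.07 FPKM in RpS15 discs and 0.70 ± 0.21 in WT, and passed the filter only through RpS15. Uggt, which glucosylates misfolded glycoproteins with UDP-glucose, rose in RpS15 discs and was called in no other comparison with WT, with 59.2 ± 0.02 FPKM against 40.4 ± 5.4 in WT (adjusted p = 0.022).

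Genes of glutathione synthesis and other conjugation moved in opposite directions in different genotypes. Of 11 of 13 list genes tested, 7 rose and 1 fell in RpS3+puc against WT, 3 rose and 3 fell in mahj, 4 rose and 1 fell in both RpS3* and RpS3, and none rose and 5 fell in RpS15 discs. Over all genes the shares called higher in these comparisons were 37.4%, 9.33%, 16.5%, 14.4% and 12.1%, and those called lower 24.9%, 6.7%, 6.33%, 4.17% and 8.99%. The list medians were 0.45, 0.13, 0.26, 0.34 and -0.29 in that order, beside all-gene medians of 0.08, -0.01, 0.07, 0.09 and 0.03. GstE1, a glutathione transferase, averaged 82.2 ± 13.0 FPKM in RpS3+puc, 7.44 ± 2.14 in mahj, 81.3 ± 9.4 in RpS3*, 52.3 ± 3.1 in RpS3 and 9.20 ± 1.14 in RpS15 discs, against 24.7 ± 7.9 in WT, with adjusted p of 0.00011, 0.0028, 0.0012, 0.022 and 0.011. In mahj discs GstE1 thus fell where Ugt86Di rose. GSS, glutathione synthetase, was at 57.0 ± 2.5 FPKM in RpS3+puc discs, against 26.2 ± 1.5 in RpS3 discs (log2 difference 1.09 ± 0.08, adjusted p = 7.3e-05), and 6 of 11 list genes rose in that comparison, in which 21.5% of all genes were called higher. Gclc, the catalytic subunit of the first enzyme of glutathione synthesis, rose in RpS3+puc, mahj, RpS3* and RpS3 discs (9.60 ± 1.28, 13.7 ± 2.5, 11.8 ± 0.2 and 10.5 ± 0.5 FPKM), against 6.77 ± 0.76 in WT. St2, a sulfotransferase, fell in the same 4 genotypes, to 27.3 ± 10.3, 21.4 ± 10.6, 11.4 ± 8.3 and 23.0 ± 6.5 FPKM, against 58.0 ± 19.1 in WT.

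Of the ABC transporters that export conjugates, MRP, the multidrug resistance associated protein, rose with the Ugt302 genes. It averaged 54.1 ± 7.3 FPKM in RpS3+puc, 57.4 ± 5.3 in mahj, 93.7 ± 10.5 in RpS3* and 70.0 ± 15.9 in RpS3 discs, against 27.3 ± 1.8 in WT, with log2 differences of 0.96, 1.05, 1.74 and 1.31 and adjusted p of at most 9.8e-06. Mrp5, a relative of MRP, was highest in RpS15 discs, with 6.42 ± 0.35 FPKM against 1.39 ± 0.16 in WT (adjusted p = 8.3e-06). The list held 6 genes, and of 3 counted in each comparison, 2 rose in RpS3+puc, 3 in mahj, 1 in RpS3*, 1 in RpS3 and 1 in RpS15 discs, and none fell. Counts this small cannot be read against the shares over all genes. Of the oxidation list, 2 of 5 genes were counted in each comparison. Cyp6g1, a cytochrome P450 known for insecticide resistance, was at 1.88 ± 0.50 FPKM in RpS15 discs and 0.64 ± 0.32 in WT, and passed the filter only through RpS15. Cyt-b5, the electron donor of P450 enzymes, rose in RpS3+puc discs by 0.25 ± 0.11 (0.064).

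Among 8 transcription factors and partners listed as regulators, cnc, the fly Nrf2, was called in 1 comparison, with 22.4 ± 2.1 FPKM in RpS3+puc discs against 29.0 ± 4.8 in WT (adjusted p = 0.059), and Keap1, its inhibitor, was also lower there, with -0.19 ± 0.08 (0.071). Xrp1, a bZIP factor, averaged 354.3 ± 30.3 FPKM in RpS3+puc, 434.0 ± 39.0 in mahj, 525 ± 18.99 in RpS3* and 469.1 ± 32.0 in RpS3 discs, and 59.2 ± 3.1 in RpS15 discs, against 174.9 ± 18.1 in WT (adjusted p of at most 1.1e-05 in each). Irbp18, its partner, was higher in the same 4 genotypes and lower in RpS15, with 109.6 ± 4.6, 113.2 ± 17.6, 114.3 ± 3.3, 99.4 ± 6.8 and 21.4 ± 1.6 FPKM, against 33.7 ± 3.2 in WT. Both genes were thus higher than WT in the same 4 genotypes as Ugt86Di and Ugt86Da. In RpS15 discs Xrp1 and Irbp18 fell below WT. Neither expressed Ugt302 gene was called there, with a wide interval for Ugt86Di (-1.28 to 0.83). In RpS3+puc against RpS3 discs Xrp1 fell by 0.41 (SE 0.09, adjusted p = 0.011), where the values for Ugt86Di and Ugt86Da were 0.16 each. Any part of Xrp1 or Irbp18 in the levels of the Ugt302 genes was not tested. ss, a partner of tgo, fell in RpS3+puc, RpS3* and RpS3 discs, with -0.60, -0.35 and -0.35 (adjusted p = 0.00039, 0.046 and 0.052). All comparisons with WT share the same 8 WT libraries, and fewer cells of a type and less RNA per cell cannot be told apart in these whole discs.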

How the data were processed

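RNA was made from 50 wing discs per sample with a TruSeq protocol, and the 25 sequenced samples formed 19 libraries, 6 of them with 2 pooled runs. These 6 were the mahj and RpS15 libraries, WT1 and WT2, so that the number of runs differed between genotypes. The submitters' processing notes name BWA 0.6.2 and build dm3. The counting step is not given in the sources used here. The deposited FPKM values of the authors, 1 per gene and library, were used as they were. Of the low values of genes with 1 transcript, 97.2% to 97.8% per library were whole multiples of 1 read (tolerance 0.02, for 0.5 to 50 reads), which gave depths of 12122876 to 16970385 reads and the read numbers in the text. RPKM would look the same. The column of WT1 is headed as run 1 only, and which runs it holds was not resolved. No column was left unused.

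Symbols came from BDGP6.54, which holds 13661 of the identifiers. The members and lists were chosen with earlier results of these data known. Named were all Ugt86D genes, every Ugt gene called in a comparison, the 5 highest in WT, the mutated or expressed genes, and up to 3 called genes with the largest change per list. Some other members and genes were chosen after their values were seen: Ugt36A1, Ugt37A3, Ugt49B2, the chromosomal neighbours and several list genes. Of the listed marker genes 4 were unmatched and were not used here.

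limma 3.58.1 (statmod 1.5.0, R 4.3.3), with trend and robust variance, was fitted to log2(FPKM + 1), with genes of at least 1 FPKM in at least 2 libraries and Benjamini-Hochberg adjustment over all genes tested. Comparisons with WT or RpS3 used the compared libraries, contrasts between mutants all 19. The code of the fits was tried on data simulated around the WT means and spreads, which does not test the calls reported here. Alternatives were an adjusted p under 0.05, a pseudocount of 0.1, no filter, median-of-ratios scaling, other sets of libraries or WT stocks, a block for the replicate number, omission of single replicates and, chosen after seeing the data, WT libraries with as many runs as the mutant.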

Additional observations from a re-analysis of the deposited data

Results flagged for a closer look

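Differences between mutants are listed where the contrast of both genotypes was itself called. Between RpS3* and RpS15 these were Ugt86Di (2.25), Ugt86Da (1.18), Ugt86Df (0.82) and Ugt49C1 (0.73), higher in RpS3*, and Ugt316A1 (-0.42), Ugt317A1 (-1.79) and Ugt50B3 (-0.87), lower in RpS3*. Between mahj and RpS15 they were Ugt86Di (2.96), Ugt86Da (0.93), Ugt86Df (0.92) and Ugt317A1 (-1.97). Between mahj and RpS3* they were Ugt36D1 (-0.52), Ugt49C1 (-0.49) and Ugt316A1 (0.33), and between RpS3* and RpS3 it was Ugt49C1 (0.72), all as log2 fold changes. Ugt49C1 passed the filter on low values only through the RpS3* libraries, so that its differences were built into its selection. Dixon's test over the 8 WT libraries was run on the 7 named members that reached 1 FPKM in WT and found no library apart. Chance alone marks about 1 in 20 groups. The test looks for a single extreme library and can miss libraries that are high together, as WT4, WT5 and WT6 were in Ugt86Di.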

How the results depend on the processing

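Counts of called Ugt genes are small, and a single call moves them. Here they include members that passed the filter only through 1 group, and before any change they were 2 for RpS3, 4 for RpS3*, 4 for mahj, 3 for RpS15 and 4 for RpS3+puc against WT, 3 for RpS3+puc against RpS3, 1 for RpS3* against RpS3, 7 for RpS3* and 4 for mahj against RpS15, 3 for mahj against RpS3* and 1 between the WT stocks. Without the filter on low values they were 4 for RpS3 and 6 for RpS15 against WT, 6 for RpS3+puc against RpS3, 12 for RpS3* and 9 for mahj against RpS15. Against the FRT82 ubi-GFP WT libraries only, 4 were called for RpS3 and 1 for RpS15. At an adjusted p under 0.05 the counts were 0 for RpS3* against RpS3, 1 for mahj against RpS3* and 0 between the WT stocks. RpS3* against RpS3 gave 0 with a pseudocount of 0.1 and 2 with median-of-ratios scaling, which gave 0 between the WT stocks. In fits of the libraries of 2 groups only, 3 were called for RpS3* against RpS3 and 5 for mahj against RpS3*. With the replicate block, 4 were called for RpS3 against WT, 3 for RpS3* against RpS3 and 5 for mahj against RpS3*, and in no other comparison did the count move by more than 1.5 times. The numbers pair nothing that the labels name, and same-numbered libraries of RpS3+puc and WT had correlations of 0.10, 0.08 and 0.26 in their deviations.

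With 1 replicate left out the counts were 1 for RpS3 and 1 for RpS15, 1 to 2 for RpS3*, 2 to 3 for mahj and 4 for RpS3+puc against WT, 1 to 5 for RpS3+puc against RpS3, 0 for RpS3* against RpS3, 5 to 7 for RpS3* and 3 to 5 for mahj against RpS15, and 0 to 1 for mahj against RpS3*. A lone library was assumed to vary like the other group. The uncalled difference of Ugt86Di between RpS15 and WT changed sign, to 0.028 with yw WT only. It was 0.45 with WT1 and WT2 only, the WT libraries with as many runs as RpS15, and also 0.45 with the replicate block. It ranged between -0.74 and 0.29 with 1 RpS15 library left out. Ugt317A1 in RpS3+puc against WT turned to 0.0082 with FRT82 ubi-GFP WT only. Of the alternative values of called genes, 339 kept their call, 44 lost it and 1 changed sign. The cause was not tested. Depth limits the 21 members below 0.5 FPKM in all libraries, whose values rest on few reads.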
